A study of Mus musculus with 3 samples.

Results

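The 8 genes described here encode 7 S100 proteins (*S100a1*, *S100a4*, *S100a6*, *S100a10*, *S100a11*, *S100a13* and *S100b*) and galectin 1 (*Lgals1*), out of 27755 genes listed for the D10 culture and the E14.5 tail and 25936 listed for the D6 paraxial mesoderm (D6 PM). They were chosen by their levels in these same files, with earlier results known, so that the levels and ratios below are descriptions and carry no test. All 8 had a row in each of the 3 count tables. The value for a gene is its level in CPM, its UMIs (unique molecular identifiers, each standing for 1 captured transcript) summed over the cells of a cluster and scaled to the summed UMIs of all genes there. Intervals are exact 95% intervals and cover counting error only.

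The study differentiated mouse embryonic stem cells toward tendon and compared the product with embryonic tail cells by single-cell RNA sequencing, with 1 library per condition. The stem cells came from blastocysts of the ScxGFP mouse, in which regulatory sequence of the tendon gene *Scx* drives GFP, and had been kept on mouse embryonic fibroblast feeder cells. D6 PM cells were first formed into embryoid bodies with 500 nM LDN-193189. From day 2 to day 6 they were specified toward paraxial mesoderm with the same LDN-193189 and 5 μM CHIR. D10 culture cells went on from there to day 10 with FGF2 and TGFβ1, both at 10 ng/mL, and with SAG, an agonist of Hedgehog signalling, at 100 nM. The tail came from embryos at stage E14.5. The reporting summary traces E14.5 embryos to ScxGFP mice of the C57BL6 strain, and the methods name ScxGFP dams for collected embryos. Whether the sequenced tail itself carried the reporter is not given in the sources used here. None of the libraries was sorted for GFP. Because a condition is 1 library, differences between conditions cannot be told apart from differences between libraries.

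Cells numbered 7821 in the D10 culture, 2052 in the E14.5 tail and 5954 in D6 PM, and the median depth was 5622, 13512 and 8171 UMIs, respectively. Between 3 and 10 cell barcodes were shared by any 2 libraries. Clusters are called by the codes deposited with the cells, which run from 1 to 14 across culture and tail and separately from 1 to 6 in D6 PM, and 30 cluster sums of at least 10 cells were kept. The summed level of 9 tendon markers was highest in code 1 of the culture (12403 CPM) and of the tail (10823 CPM), but none of these markers was among the 10 genes with the largest fold there and the smooth muscle gene *Myh11* led in the tail, so that code 1 is called by its number. Code 2 was proliferating-like, code 4 cartilage-like and code 11 endothelial-like in both libraries. In the tail, the summed level of 4 skin epithelium markers was highest in codes 8 and 3 (6354 and 5777 CPM), but none of them was among the 10 leading genes of either, which included *S100a8* and *S100a9* in code 3 and *Krt19*, also a notochord marker, in code 8, so that both are called by number. Also in the tail, code 5 was muscle-like, codes 6 and 12 erythroid-like, code 10 neuron-like and code 14 glia-like. In the culture, code 3 was pluripotent-like and code 8 was led by gut and pancreatic hormone genes (*Gcg*, *Pyy*, *Ghrl*). D6 PM code 1 was epithelial-like and code 2 pluripotent-like, while D6 PM code 4, where the somite markers summed to their D6 PM maximum of 388 CPM, is called by its number. Code 9 of the culture and of the tail, and code 5 of D6 PM, held mesenchyme genes together with macrophage genes and are not named. The names of the neuron-like and both pluripotent-like clusters rest on summed markers (for the latter, 5995 CPM in culture code 3 and 7891 CPM in D6 PM code 2), since none of these was among their 10 leading genes. *S100a4* itself was among the 10 leading genes of culture code 9, as was *S100a6* in culture code 7, a cluster of shallow cells.

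S100 proteins are small calcium-binding proteins of vertebrates. Most form dimers, open a binding surface when calcium is bound and then attach to partner proteins such as annexins, and some are released and act on receptors outside the cell. Most mouse *S100* genes lie side by side on chromosome 3, with *S100b* elsewhere. Galectin 1 is a secreted lectin that binds galactose-bearing sugars on cell surface and matrix glycoproteins. *S100a4* is widely used as a fibroblast marker and is also made by macrophages, while *S100b* and *S100a1* are known from chondrocytes and *S100b* from glia.

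Sequences of the promoter windows, from 250 bases before to 50 bases after each start site, were read from RefSeq (GRCm38.p6) for 6 of the 8 genes. *S100a10* and *Lgals1* were not matched. *S100a1* and *S100a13* are shown because their windows, on opposite strands of chromosome 3, overlap by 204 bases (chr3:90514281-90514484), which are in capitals. The windows are chr3:90514281-90514580 on the minus strand for *S100a1* and chr3:90514185-90514484 on the plus strand for *S100a13*, each read along its own strand.

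S100a1: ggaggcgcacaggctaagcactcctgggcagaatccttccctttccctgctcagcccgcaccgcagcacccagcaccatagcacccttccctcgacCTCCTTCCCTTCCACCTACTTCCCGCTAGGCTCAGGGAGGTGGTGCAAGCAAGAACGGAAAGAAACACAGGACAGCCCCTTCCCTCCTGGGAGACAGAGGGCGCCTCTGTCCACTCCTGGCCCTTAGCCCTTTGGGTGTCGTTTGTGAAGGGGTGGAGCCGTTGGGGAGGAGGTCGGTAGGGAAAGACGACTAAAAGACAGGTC

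S100a13: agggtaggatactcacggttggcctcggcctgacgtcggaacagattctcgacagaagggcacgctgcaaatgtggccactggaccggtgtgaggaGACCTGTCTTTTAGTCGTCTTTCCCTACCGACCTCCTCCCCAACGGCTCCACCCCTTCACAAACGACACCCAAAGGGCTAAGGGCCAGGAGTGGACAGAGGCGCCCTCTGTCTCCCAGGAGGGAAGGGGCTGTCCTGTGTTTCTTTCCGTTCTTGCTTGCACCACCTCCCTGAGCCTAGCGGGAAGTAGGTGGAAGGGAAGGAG

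*S100a4* (chr3:90603520-90603819), *S100a6* (chr3:90612644-90612943) and *S100a11* (chr3:93520246-93520545), all on the plus strand, are shown because the first 2 reached their highest levels in the same cluster and the last was broadly detected. Capitals mark matches to 5 motifs searched on both strands. One was the TATA box with the letters TATAAA. The next was the GC box, searched as GGGCGG. The others were the CCAAT box, the AP-1 site with the letters TGANTCA, and the E-box searched as CATCTG. No match overlapped another.

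S100a4: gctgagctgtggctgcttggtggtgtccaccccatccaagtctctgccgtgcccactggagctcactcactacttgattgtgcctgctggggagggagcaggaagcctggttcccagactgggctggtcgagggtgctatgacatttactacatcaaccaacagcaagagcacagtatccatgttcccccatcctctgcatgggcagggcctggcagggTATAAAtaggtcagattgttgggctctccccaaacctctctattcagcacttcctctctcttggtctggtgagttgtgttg

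S100a6: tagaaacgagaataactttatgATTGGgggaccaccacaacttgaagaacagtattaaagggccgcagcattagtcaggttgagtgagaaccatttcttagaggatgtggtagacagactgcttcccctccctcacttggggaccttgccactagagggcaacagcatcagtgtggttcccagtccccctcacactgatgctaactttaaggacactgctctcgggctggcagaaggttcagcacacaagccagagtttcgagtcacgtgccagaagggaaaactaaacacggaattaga

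S100a11: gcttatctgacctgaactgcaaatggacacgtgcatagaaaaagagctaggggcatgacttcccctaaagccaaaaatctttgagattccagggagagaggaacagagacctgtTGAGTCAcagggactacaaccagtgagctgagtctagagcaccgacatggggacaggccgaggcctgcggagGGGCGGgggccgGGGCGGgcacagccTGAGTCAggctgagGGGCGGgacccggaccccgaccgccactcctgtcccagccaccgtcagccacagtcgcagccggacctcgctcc

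The *S100a4* window held TATAAA 31 bases upstream of the start site, a motif found in 13.6% of the 32851 promoter windows of the table. The *S100a11* window held 3 GGGCGG and 2 TGANTCA matches, letters found in 35.7% and 7.81% of all windows. The *S100a6* window held a single CCAAT on the opposite strand, 228 bases upstream, against 37.4% of all windows with one. *S100b*, at chr10:76253586-76253885, held CCAAT in both orientations. No window of the 6 contained CATCTG, which was in 17.2% of all windows.

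**Figure D1:**
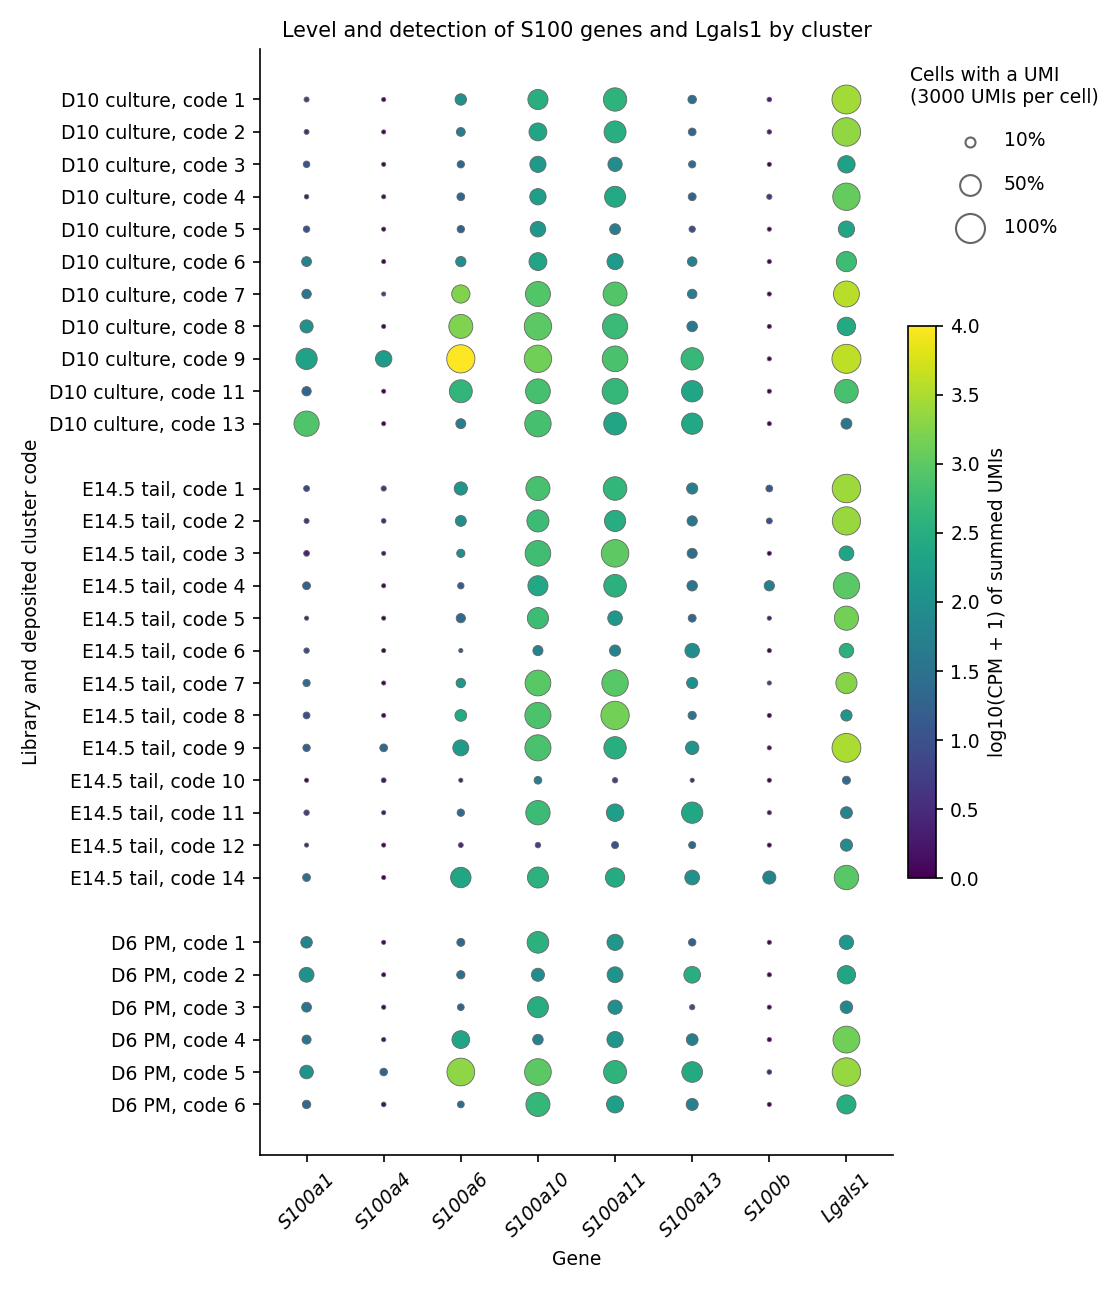
Level (colour, log10 of CPM + 1 of summed UMIs) and share of cells with a UMI after thinning to 3000 UMIs per cell (dot area) of the 8 genes in 30 clusters of the 3 libraries. *S100a6* reached 11908 CPM in culture code 9 and 2101 CPM in D6 PM code 5, *S100b* reached 52.0 CPM in tail code 4 and 61.1 CPM in tail code 14, and *Lgals1* stood between 958 and 4022 CPM in codes 1, 2, 4 and 9 of culture and tail.

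*Lgals1* was found in every cluster, from 21.9 to 4022 CPM. In the culture it stood at 2760 CPM (2735 to 2785) in code 1, 2189 CPM in code 2, 1121 CPM in code 4 and 4022 CPM in code 9. In the tail the corresponding levels were 2619 CPM (2587 to 2651), 2408 CPM, 958 CPM and 3113 CPM. Culture code 7 (3700 CPM), tail code 7 (1906 CPM) and the muscle-like cluster of the tail (1389 CPM) were also above code 4 of either library. Among codes 1, 2, 4 and 9 the order from high to low was code 9, code 1, code 2 and code 4 in both libraries. Code 1 gave 56.1% and code 2 28.7% of the culture's *Lgals1* UMIs. *Lgals1* was low in the neuron-like cluster of the tail (21.9 CPM), in culture code 13 (38.9 CPM) and in the endothelial-like cluster of the tail (65.0 CPM). At 3000 UMIs per cell, 99.3% of culture and 96.2% of tail code 1 cells had a *Lgals1* UMI, while the shares in other clusters reached down to 5.84% in neuron-like tail code 10 and 12.5% in culture code 13, and erythroid-like tail code 12 was at 16%. These 3 are clusters set beside code 1, not a measured background. Without thinning the shares in code 1 were 98.5% and 99.4%. The median depths before thinning were 4918.5 and 13463 UMIs in code 1 of culture and tail and 8391.5 UMIs in tail code 12.

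*S100a10*, the partner of annexin A2 at the membrane, and *S100a11*, which also binds annexins, were found in every cluster. *S100a10* ranged from 135 to 1362 CPM over the 11 culture clusters (median 327 CPM), from 4.71 to 902 CPM over the 13 tail clusters (median 540 CPM) and from 56.8 to 976 CPM over the 6 D6 PM clusters (median 330 CPM). *S100a11* ranged from 47.3 to 824 CPM, from 5.33 to 1389 CPM and from 95.3 to 378 CPM in the same order. The highest *S100a11* levels were in the tail clusters with the most skin epithelium markers, with 1389 CPM in code 8 and 1022 CPM in code 3. Both genes were near their lowest in neuron-like and erythroid-like tail cells, where *S100a10* stood at 48.6 CPM in code 10 and 4.71 CPM in code 12 and *S100a11* at 5.33 CPM and 9.42 CPM. Of the neighbours in the order of the 30 levels, 18 of 29 pairs were not apart beyond counting error for *S100a10*, and 22 of 29 for *S100a11*.

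*S100a6*, which encodes calcyclin, the ligand of the binding protein made from *Cacybp*, ranged from 1.19 CPM in neuron-like tail cells to 11908 CPM. It stood at 11908 CPM (11587 to 12235) in culture code 9, 2101 CPM (2064 to 2138) in D6 PM code 5, 1776 CPM in culture code 7 and 1699 CPM in culture code 8. The top 5% of cells held 78.2% of the *S100a6* UMIs of culture code 7, where 23% of cells had one, and 25.4% of those of culture code 8, where 72.3% had one. Code 9 made up 0.678% of the culture cells and held 48.8% of the culture's *S100a6* UMIs, and D6 PM code 5 made up 11.1% of cells and held 84.0%. In the tail the highest level was 271 CPM (247 to 296), in code 8, of which 80.5% came from the top 5% of its cells. Code 1 was at 102 CPM (97.7 to 107) in the culture and 120 CPM (114 to 127) in the tail, and code 4 at 19.8 CPM and 14.2 CPM. These UMIs were unevenly spread: in culture code 1 the top 5% of cells held 66.7% of the *S100a6* UMIs, with up to 69 in 1 cell, whereas they held 18.8% of those of *Lgals1*. At 3000 UMIs per cell, 13.8% of culture code 1 cells and 19.2% of tail code 1 cells had a *S100a6* UMI, against 0.8% of tail code 12 cells, and without thinning 19.8% and 41.5% had one.

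*S100a4*, the fibroblast and macrophage gene, had 66 of its 73 culture UMIs in code 9 and 108 of its 114 D6 PM UMIs in code 5. In the tail 52 of its 94 UMIs were in code 9 and 30 in code 1. Its levels there were 150 CPM (116 to 191), 18.3 CPM (15.0 to 22.1) and 21.4 CPM (16 to 28.0), and the last 2 were not apart beyond counting error. In code 1 it was at 0.181 CPM (3 UMIs) in the culture and 2.96 CPM (30 UMIs) in the tail. It had 0 UMIs in 14 of the 30 clusters, which allows up to 0.246 CPM in the deepest and 13.5 CPM in the shallowest of them (3 counts over the cluster). At 3000 UMIs per cell 30.6% of culture code 9 cells had a *S100a4* UMI and 94.4% a *S100a6* UMI, and 30.6% (16.3 to 48.1) had both, where 28.9% would have both if the genes were independent. With *S100a6* in nearly every cell, a share with both could hardly differ from the share with *S100a4*. In D6 PM code 5 the share with both was 4.87% (3.11 to 7.22), where 4.44% would be seen for independent genes. In tail code 9, where 28.9% of cells had a *S100a6* UMI, the share was 3.29% (1.08 to 7.51), against 1.52% if independent. No cell of tail code 12 had a *S100a4* UMI at this depth.

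*S100a13*, which takes part in the release of FGF1, was highest in culture code 9 (474 CPM, 412 to 543) and in D6 PM code 2 (335 CPM, 325 to 345). It then stood at 265 CPM in D6 PM code 5, 245 CPM in culture code 13, 239 CPM in the endothelial-like cluster of the tail and 233 CPM in that of the culture, 4 levels of which no neighbouring pair was apart beyond counting error. After these no cluster exceeded 123 CPM. In code 1 the level was 26.2 CPM (23.8 to 28.8) in the culture and 50.2 CPM (45.9 to 54.7) in the tail. The share of endothelial-like cells with a *S100a13* UMI at 3000 UMIs per cell was 53.2% (38.1 to 67.9) among culture cells and 53% (40.3 to 65.4) among tail cells, against 4% in tail code 12. Unthinned, the shares were 67.2% and 90.1%.

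*S100a1*, known from heart and muscle as a modulator of calcium release, was highest in culture code 13, a group of 43 cells led by *Gkn2*, *Cubn* and *Aqp8*, at 777 CPM (695 to 867). Culture code 9 followed at 203 CPM (163 to 249), then D6 PM code 5 (112 CPM), D6 PM code 2 (108 CPM) and culture code 8 (107 CPM), which were not apart beyond counting error. Code 13 held 34.6% of the culture's *S100a1* UMIs in 0.550% of its cells. All 6 D6 PM clusters lay between 23.2 and 112 CPM, whereas the 13 tail clusters lay between 0 and 26.7 CPM, a range that overlapped at its top. The muscle-like tail cluster was at 1.85 CPM (4 UMIs), where the calcium release channel gene *Ryr1* stood at 54.0 CPM.

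*S100b* gave 364 UMIs in the tail, 47 in the culture and 12 in D6 PM. In the tail it was at 61.1 CPM (43.5 to 83.6) in the glia-like cluster and 52.0 CPM (44.5 to 60.4) in the cartilage-like cluster, which were not apart beyond counting error, and at 11 CPM (9.02 to 13.2) in code 1. In the culture the highest level was 3.91 CPM (2.08 to 6.68) in the cartilage-like cluster, and 8 of the 11 culture clusters had 0 UMIs. The culture had 1 cell with the code of the glia-like cluster, so that no culture level is given for it. Of the 12 D6 PM UMIs, 10 were in code 5. At 3000 UMIs per cell 18.9% of glia-like and 10.8% of cartilage-like tail cells had a *S100b* UMI, against 0% of tail code 12 cells, where 0 of 125 allows up to 2.40%. Unthinned, these shares were 50% and 26.1%. In the glia-like cells *S100b* was seen together with *Sox10*, a glial transcription factor, in 13.5% of cells (4.54 to 28.8), where 12.3% would be seen for independent genes. In the cartilage-like tail cells *S100b* and *S100a1* were seen together in 1.67% (4 of 240 cells, 0.456 to 4.21), where 0.587% would be seen.

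To compare the culture with the tail, the ratio of levels was taken within code 1, proliferating-like code 2 and cartilage-like code 4. Code 4 is taken as cartilage-like from the markers in these files. The published cluster numbers do not settle this, since by cell number the published cartilage cluster matches the code that held pluripotency markers in the culture. A gene entered the count when 10% or more of either group's cells had a UMI of it, and was 2-fold apart when the ratio was at least 2 or at most 0.5. In code 1, *S100a10* and *S100b* were at least 2-fold lower in the culture, 2 of the 6 members that passed the detection filter, and none was higher. Relative to the median gene only *S100b* was, since *S100a10* stood at a log2 ratio of -0.84. Over all 10418 genes compared there, 13.6% were at least 2-fold lower in the culture and 5.76% at least 2-fold higher. In code 2, *S100a6*, *S100a10* and *S100b* were lower, 3 of 6 members (1 member without called doublets, where *S100a6* was at 0.509 and *S100b*, at 0.128, no longer passed the filter), where 13.6% of all genes were lower and 5.50% higher. In code 4, *S100a1*, *S100a13* and *S100b* were lower, 3 of 7 members, where 13% of all genes were lower and 4.86% higher. The median log2 ratio was -0.58 over the members that passed in code 1, -1.01 in code 2 and -0.60 in code 4, beside -0.21, -0.18 and -0.18 over all genes. A gene could pass the filter through either group, and tail cells were deeper, so that these counts and medians describe the members that passed and support nothing further.

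**Figure D2:**
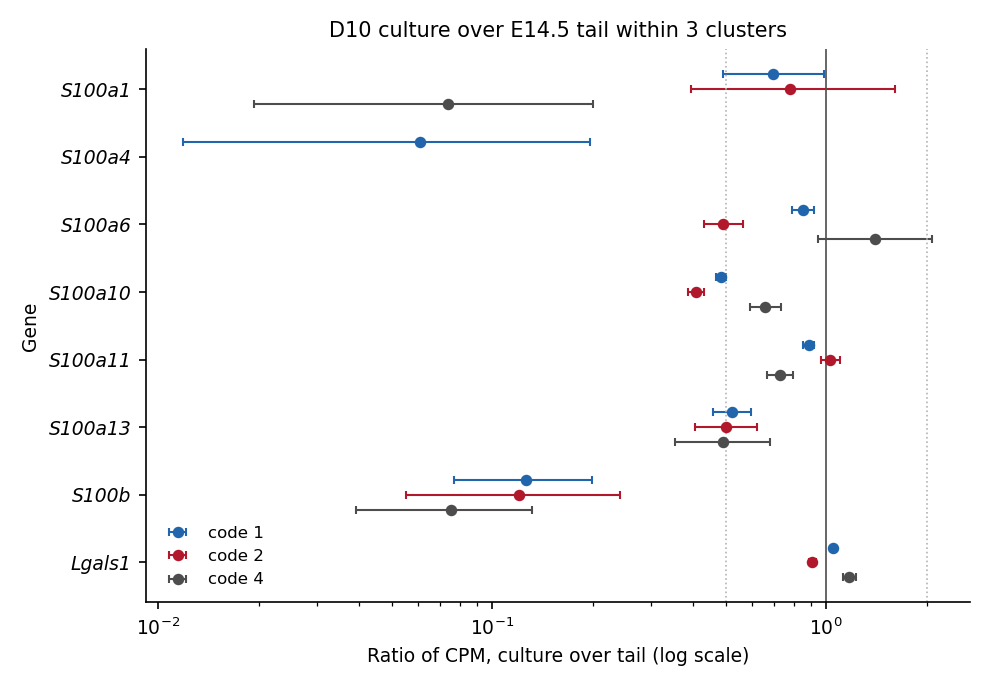
Ratio of the CPM level of each gene in the D10 culture over the E14.5 tail (log scale) in cluster codes 1, 2 and 4, with exact 95% intervals. Dotted lines mark 0.5 and 2. *S100b* lies between 0.0752 and 0.126 in all 3 clusters and *Lgals1* between 0.909 and 1.17, and ratios with a count of 0 are left out.

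*S100b* had the lowest ratios of culture over tail among the members that passed the filter in codes 1 and 2, at 0.126 (0.0770 to 0.199) in code 1 and 0.120 (0.0553 to 0.241) in code 2, and it was at 0.0752 (0.0392 to 0.132) in code 4. In the cartilage-like cluster these were 13 UMIs in the culture and 172 in the tail, in cluster sums of nearly the same depth. *S100a1* had there 4 UMIs in the culture and 54 in the tail, a ratio of 0.0737 (0.0194 to 0.200), while in codes 1 and 2 its ratios were 0.695 (0.491 to 0.985) and 0.780 (0.395 to 1.61). *S100a4*, which did not pass the filter, had a ratio of 0.0610 (0.0119 to 0.196; 0.0318 as a mean over cells) in code 1, and in code 2 it had 0 UMIs in the culture and 9 in the tail, at least 7.42-fold lower against a floor of 3 counts over the cluster, though the exact interval, which also takes in the error of the 9 UMIs, allows a difference of 4.88-fold.

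*S100a10* was lower in the culture in all 3 clusters, with ratios of 0.484 (0.467 to 0.501), 0.408 (0.385 to 0.432) and 0.658 (0.590 to 0.734). *S100a13* was lower by a like factor, at 0.523 (0.459 to 0.595), 0.501 (0.404 to 0.621) and 0.493 (0.354 to 0.681), so that only code 4 was past 2-fold and its interval spanned 0.5. *S100a6* was at 0.852 (0.791 to 0.918) in code 1, 0.493 (0.430 to 0.565) in code 2 and 1.40 (0.946 to 2.08) in code 4. *S100a11* was at 0.887 (0.854 to 0.922), 1.03 (0.964 to 1.10) and 0.726 (0.664 to 0.794). *Lgals1* was near 1 in each, at 1.05 (1.04 to 1.07), 0.909 (0.888 to 0.930) and 1.17 (1.12 to 1.23).

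The cartilage-like cluster was next set against code 1 inside each library. *S100b* was higher in the cartilage-like cluster in both, by 2.82-fold (1.31 to 5.80) in the culture and 4.74-fold (3.71 to 6.08) in the tail. The culture value rests on 13 and 23 UMIs and did not pass the filter, while the tail value rests on 172 and 111 UMIs. *S100a6*, *S100a10*, *S100a11*, *S100a13* and *Lgals1* were lower there in both. *S100a6* had ratios of 0.194 (0.149 to 0.248) in the culture and 0.118 (0.0863 to 0.158) in the tail, and *Lgals1* of 0.406 (0.393 to 0.420) and 0.366 (0.353 to 0.380). *S100a10* was at 0.504 (0.461 to 0.550) and 0.370 (0.344 to 0.398), *S100a11* at 0.674 (0.627 to 0.724) and 0.823 (0.771 to 0.879), and *S100a13* at 0.665 (0.497 to 0.876) and 0.705 (0.572 to 0.864).

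*S100a1* went opposite ways: its ratio of cartilage-like over code 1 was 0.270 (0.0716 to 0.720) in the culture, from 4 and 74 UMIs, and 2.54 (1.74 to 3.71) in the tail, from 54 and 65 UMIs. The culture value did not pass the filter. Only 1.65% of culture code 1 cells had a *S100a1* UMI, with up to 13 in 1 cell, a spread that the interval does not cover. The tail value passed through the cartilage-like cluster alone (14.9% of cells, against 7.45% in code 1). In the culture 2 of 5 members that passed the filter were at least 2-fold lower in the cartilage-like cluster and none higher, where 3.36% of all genes were lower and 1.54% higher. In the tail 3 of 7 members were lower and 2 higher, where 6.28% of all genes were lower and 3.65% higher. Clusters were formed from the same cells and genes, so that these counts describe the clusters.

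**Figure D3:**
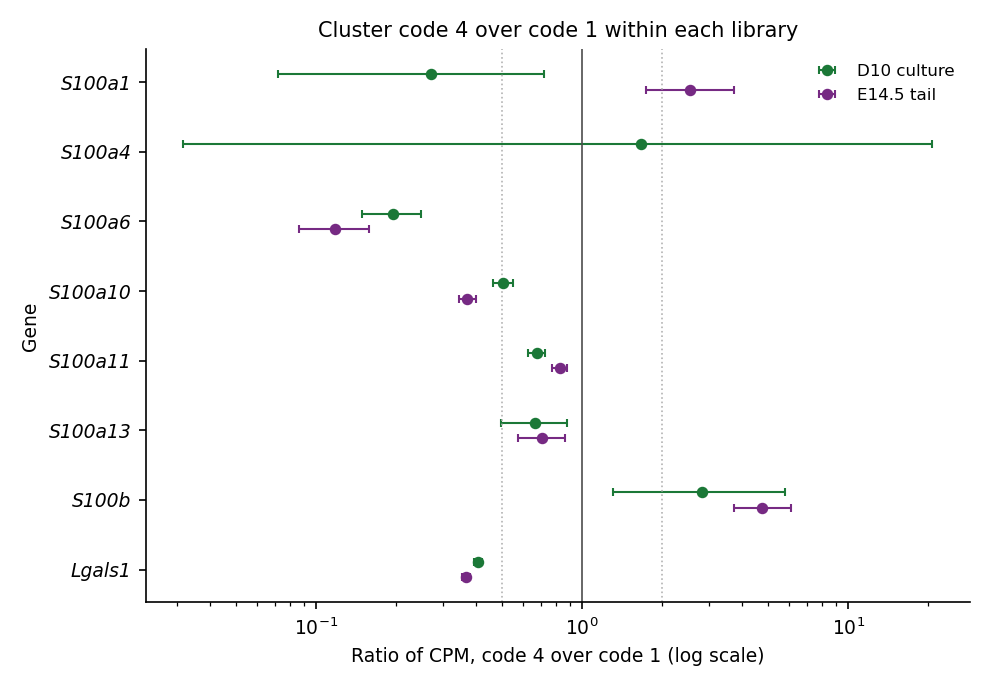
Ratio of the CPM level of each gene in cartilage-like code 4 over code 1 (log scale) within the D10 culture and within the E14.5 tail, with exact 95% intervals and dotted lines at 0.5 and 2. *S100b* is above 1 in both libraries, *S100a6* and *Lgals1* are below 0.5 in both, and *S100a1* is below 1 in the culture (0.270) and above it in the tail (2.54). *S100a4* in the tail is left out for a count of 0.

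Between day 6 and day 10, culture code 1 was set against D6 PM code 4. *S100a10* was higher in culture code 1 by 5.76-fold (5.17 to 6.44), from 56.8 CPM to 327 CPM, *S100a11* by 3.21-fold (2.98 to 3.48) and *Lgals1* by 2.05-fold (2 to 2.10; 1.77-fold as a mean over cells). *S100a1* was lower, with a ratio of 0.138 (0.104 to 0.181) that became 0.0882 without called doublets, as was *S100a6*, with 0.438 (0.408 to 0.470). Of the 6 members that passed the filter 3 were thus at least 2-fold higher and 2 lower, where 9.88% of all genes were higher and 10.8% lower. *S100a1* passed through D6 PM code 4 alone (22.4% of cells, against 1.65% in culture code 1). *S100a13* was at 0.514 (0.443 to 0.597). Of the partner genes, *Anxa1*, *Anxa2*, *Ahnak*, *Myh9*, *Fgfr1* and *Itgb1* were at least 2-fold higher and none lower among the 15 of 26 that passed.

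Among pluripotent-like cells, culture code 3 was set against D6 PM code 2. *S100a13* was at 22.9 CPM in the culture and 335 CPM in D6 PM, a ratio of 0.0685 (0.0603 to 0.0775), and *S100a1* at 10.3 CPM and 108 CPM, a ratio of 0.0951 (0.0783 to 0.115). The other 4 members that passed the filter lay between 0.728 and 1.59. Over all genes, 3% were at least 2-fold lower and 4.14% higher. The 2 lower members were *S100a1*, which passed the filter through D6 PM alone, and *S100a13*. Their promoter windows overlap, and a link between this and the ratios was not tested. At 3000 UMIs per cell, 24.8% of D6 PM code 2 cells had a *S100a1* UMI and 31.8% a *S100a13* UMI, against 3.24% and 4.26% of culture code 3 cells. Unthinned, the shares were 41.2% and 44.9% in D6 PM and 9.65% and 11.4% in the culture.

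Endothelial-like cells (58 in the culture and 71 in the tail) had more *S100a6*, *S100a11* and *Lgals1* in the culture. *S100a6* was at 415 CPM in the culture and 23.3 CPM in the tail, a ratio of 17.8 (12.1 to 26.9), *Lgals1* at 694 CPM and 65.0 CPM, a ratio of 10.7 (8.36 to 13.8), and *S100a11* at 461 CPM and 167 CPM, a ratio of 2.77 (2.24 to 3.41). *S100a10* and *S100a13* were at 1.22 (1.05 to 1.42) and 0.978 (0.754 to 1.26). Thus 3 of the 5 members that passed were at least 2-fold higher and none lower, where 13.9% of all genes were higher and 15.5% lower. The 9 tendon markers summed to 1395 CPM in the culture's endothelial-like cluster and 255 CPM in the tail's, and the part of these cells or transcripts in the ratios was not tested.

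Among the codes compared here, code 9 showed the largest ratios of culture over tail for *S100a6*, at 77.6 (69.9 to 86.5), and for *S100a1*, at 12.6 (8.58 to 18.9). *S100a4* followed at 7.03 (4.81 to 10.3), *S100a13* at 3.85 (3.21 to 4.61), *S100a11* at 2.12 (1.85 to 2.42; 3.25 as a mean over cells), *S100a10* at 1.92 (1.75 to 2.11) and *Lgals1* at 1.29 (1.23 to 1.36). With 5 of the 7 members that passed at least 2-fold higher and none lower, the background was 12.4% of all genes higher and 28.5% lower. *S100a4* passed the filter through the culture alone (37.7% of cells, against 8.28% in the tail). The count describes the members that passed and supports nothing further. Of the 5, *S100a11* fell to 1.93 under another alternative. The leading genes of tail code 9 included *C1qb* and *C1qa*, the macrophage complement genes, and *Cpa3* and *Cma1*, genes of mast cells, and those of culture code 9 *Lyz2*, *Tyrobp* and *Mmp3*. The 6 macrophage markers summed to 1116 CPM in the culture and 1793 CPM in the tail, where all 6 had at least 3 UMIs against 5 in the culture, *C1qb* being at 0 there (up to 6.83 CPM allowed). The 6 mesenchyme markers summed to 699 CPM and 3773 CPM, respectively.

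The cells of these clusters were therefore split by their macrophage UMIs (at least 3 UMIs of *C1qa*, *C1qb*, *Csf1r*, *Tyrobp* and *Fcer1g* together), a split chosen after the levels were seen. In the culture 5 of the 53 cells carried them, in the tail 34 of 157 and in D6 PM code 5 13 of 662. In the tail 49 of 52 *S100a4* UMIs were in the 34 macrophage-marker cells, at 60.7 CPM (44.9 to 80.2), against 1.85 CPM (0.381 to 5.40) in the other 123 cells. In the culture 63 of 66 UMIs were in the 48 cells with fewer macrophage UMIs, at 164 CPM (126 to 210), and in D6 PM 107 of 108, at 18.9 CPM (15.5 to 22.8). The few macrophage-marker cells there had 55.0 CPM (11.3 to 161) and 4.46 CPM (0.113 to 24.9), levels not apart from those of the other cells beyond counting error. Per UMI, *S100a4* was thus higher in macrophage-marker cells in tail code 9 alone of these 3 clusters, and 42 of the tail's 94 *S100a4* UMIs lay outside that cluster. *Col1a1*, the collagen I gene, stood at 2351 CPM in the culture's cells with fewer macrophage UMIs, 4076 CPM in the tail's and 4010 CPM in those of D6 PM.

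Without the macrophage-marker cells the ratio of culture over tail in code 9 was 88.7 for *S100a4*, 111 for *S100a6* and 15.6 for *S100a1*. *S100a6* in the cells with fewer macrophage UMIs was at 13237 CPM (12876 to 13606) in the culture, 2173 CPM (2135 to 2212) in D6 PM and 119 CPM (103 to 137) in the tail. All 48 such culture cells had a *S100a6* UMI, as did 605 of the 649 in D6 PM and 72 of the 123 in the tail, at median depths of 7146, 8488 and 12910 UMIs. The macrophage-marker cells had less *S100a6* in the culture (2546 CPM, 2141 to 3007, in 5 cells) and in D6 PM (268 CPM, 204 to 345, in 13 cells). In the tail they had more (223 CPM, 191 to 258). *S100a1* was higher in the macrophage-marker cells of D6 PM, at 544 CPM (452 to 650) against 95 CPM (87.1 to 103) in the others, and stood at 348 CPM (210 to 544) against 182 CPM (142 to 230) in the culture and 24.8 CPM (15.1 to 38.2) against 11.7 CPM (7.04 to 18.3) in the tail.

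**Figure D4:**
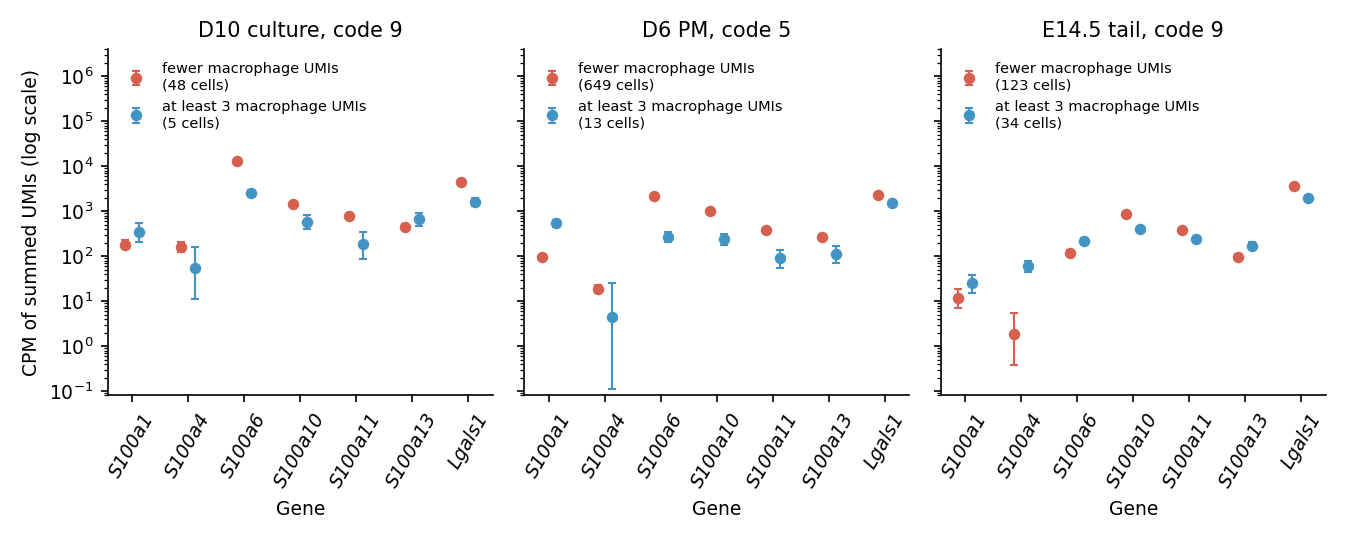
CPM levels (log scale) of 7 genes in culture code 9, D6 PM code 5 and tail code 9, split into cells with at least 3 UMIs of 5 macrophage genes (blue) and cells with fewer (red), with exact 95% intervals. *S100a4* is higher in the blue cells of the tail (60.7 against 1.85 CPM), while its intervals overlap in both cultured libraries. *S100b*, with at most 10 UMIs in any of these clusters, is not drawn.

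Against culture code 1, culture code 9 had 831-fold (272 to 4134; 1732-fold as a mean over cells) more *S100a4*, a ratio that rests on 3 UMIs in code 1, 116-fold (110 to 123; 203-fold as a mean over cells) more *S100a6*, 45.4-fold (33.0 to 62.7; 72.1-fold without called doublets) more *S100a1*, 18.1-fold (15.2 to 21.4) more *S100a13* and 4.17-fold (3.82 to 4.53) more *S100a10*, while *S100a11* differed by 1.87-fold (1.66 to 2.09) and *Lgals1* by 1.46-fold (1.39 to 1.53). D6 PM code 5 was above D6 PM code 4 by 37.1-fold (12.4 to 183; 63.0-fold as a mean over cells) for *S100a4*, with 3 UMIs in code 4, by 17.2-fold (15.4 to 19.2) for *S100a10*, 8.97-fold (8.49 to 9.49) for *S100a6*, 5.19-fold (4.59 to 5.88) for *S100a13*, 3.46-fold (2.94 to 4.08) for *S100a1*, 3.19-fold (2.93 to 3.47) for *S100a11* and 1.71-fold (1.67 to 1.76) for *Lgals1*. Between day 6 and day 10, culture code 9 stood above D6 PM code 5 by 8.21-fold (5.95 to 11.3) for *S100a4* and 5.67-fold (5.49 to 5.85) for *S100a6*, and by 1.40-fold to 1.88-fold for *S100a1*, *S100a10*, *S100a11*, *S100a13* and *Lgals1*.

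The known partners and receptors of these proteins were taken as a list of 27 genes, 26 of them in the files. In code 1, 16 passed the filter, of which 3 were at least 2-fold higher in the culture, 2 lower and 11 neither, with a median log2 ratio of 0.19, beside 5.76% of all genes higher, 13.6% lower and a median of -0.21. The higher genes were *Myh9*, the non-muscle myosin bound by the S100A4 protein, at 3.01 (2.79 to 3.25), *Bsg*, encoding the surface glycoprotein basigin, at 2.64 (2.56 to 2.71), and *Anxa1*, the annexin bound by the S100A11 protein, at 2.38 (2.13 to 2.67). *Cd44*, the hyaluronan receptor, was at 0.179 (0.136 to 0.233) and *Nrp1* at 0.381 (0.347 to 0.418). In code 2, 17 passed, with 2 higher, 3 lower and a median of 0.25 (5.50% and 13.6% of all genes, median -0.18). In code 4, 15 passed, with 3 higher, 2 lower and a median of 0.21 (4.86% and 13% of all genes, median -0.18). *Bsg* was higher and *Nrp1* lower in all 3 clusters. *Anxa2*, the partner of the S100A10 protein, was at 1.13 (1.10 to 1.17) in code 1, 1.44 (1.36 to 1.52) in code 2 and 3.81 (3.39 to 4.29) in code 4, while *S100a10* was below 1 in each. *Ager*, which encodes the receptor RAGE, did not exceed 10.7 CPM in any cluster, and *Fgf1*, whose release involves the S100A13 protein, did not exceed 3.03 CPM.

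The other S100 genes were mostly low or limited to few clusters. The list of 9 in the culture and tail files, among them *S100pbp* for a binding protein, had 1 gene that passed the filter in code 1 and 2 in code 2. *S100a8* and *S100a9*, the calprotectin pair of neutrophils and inflamed skin, stood at 768 CPM (719 to 819) and 885 CPM (832 to 939) in tail code 3. The leading genes of that cluster of 49 cells also included *Stfa2l1* and *Stfa1*, and how the pair was spread over its cells was not examined. *S100a8* was also at 67.0 CPM (57.1 to 78.1) in tail code 9. *S100a14* was at 343 CPM (316 to 372) in tail code 8, where *S100a11* was also highest and *S100a16* stood at 399 CPM (370 to 429). *S100a16* was also at 558 CPM (520 to 598) in the endothelial-like cluster of the tail, 525 CPM (434 to 629) in tail code 7 and 376 CPM (313 to 448) in the endothelial-like cluster of the culture. *S100g*, the intestinal calbindin, was at 321 CPM (268 to 380) in culture code 13, the cluster with the most *S100a1*, and at most 8.36 CPM elsewhere. Of the other galectins, *Lgals3* was at 1289 CPM (1185 to 1400) in culture code 9, 1430 CPM (1400 to 1461) in D6 PM code 5 and 117 CPM (104 to 132) in tail code 9. The highest *Lgals3* level in the tail was 484 CPM (397 to 585), in code 7. *Lgals3* was also higher in the tail's cartilage-like cluster (70.4 CPM) than in the culture's (5.41 CPM), a ratio of culture over tail of 0.0768 (0.0447 to 0.124). *Lgals7* stood at 432 CPM (402 to 464) in tail code 8, 323 CPM in tail code 7 and 209 CPM in tail code 3. Within code 9 of both libraries and within D6 PM code 5, *Lgals3* was higher in the cells with at least 3 macrophage UMIs described above than in the other cells, at 2821 against 1072 CPM in culture code 9, 7962 against 1172 CPM in D6 PM code 5 and 352 against 0.616 CPM in tail code 9.

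Across the 27 cluster sums of at least 50 cells, the genes with the pattern most like each member were found by Pearson's r of log2(CPM + 1) among 8458 genes. These sums share libraries and normalization, and r is a description. For *S100a10* and for *S100a11* the gene most alike was *Anxa2*, with r of 0.89 and 0.91, although without the D6 PM sums it ranked 5 and 3 (*Sri* led for *S100a10*, at 0.94), and by Spearman's rho 3 and 2. It was followed by *Mbd2* (0.88) and *Sri* (0.87) for *S100a10* and by *Rhod* (0.91) and *Morc4* (0.88) for *S100a11*. For *Lgals1* they were *Gxylt2* (0.90), *Twist1* (0.89) and *Zcchc24* (0.89), for *S100a6* *Abhd5* (0.88), *Capg* (0.85) and *Akr1b8* (0.84), and for *S100a13* *Mpp1* (0.73), *Abhd5* (0.73) and *Cd109* (0.70). Without the D6 PM sums *Mpp1* ranked 61 for *S100a13*, and *Cd109* led at 0.81. For *S100a4* they were *Ccl7* (0.92), *Wfdc17* (0.92) and *Ctss* (0.91), but by ranks Spearman's rho was 0.56, 0.54 and 0.40 for these genes. *S100a4* was at 0 in 12 of the 27 sums. For *S100b* they were *Abi3bp* (0.86), *Saa1* (0.83) and *Col11a2* (0.82), and for *S100a1* *Adssl1* (0.83), *Anxa7* (0.82) and *Plin2* (0.78), of which *Adssl1* has no value without the D6 PM sums. Among the members, r was highest between *S100a10* and *S100a11* (0.83) and lowest between *S100a1* and *S100b* (-0.22). The pair with overlapping promoter windows, *S100a1* and *S100a13*, had r of 0.56.

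**Figure D5:**
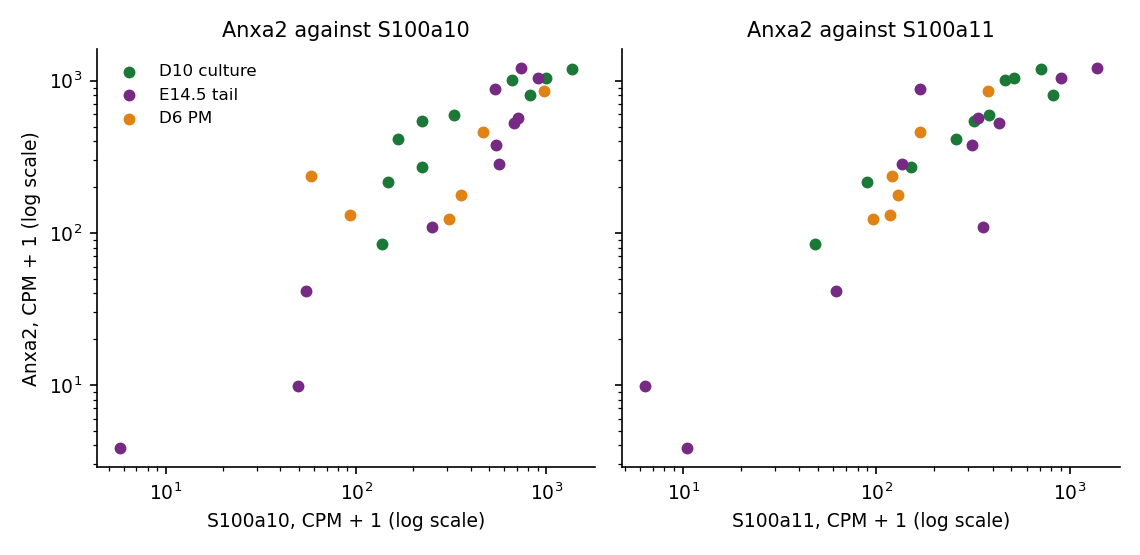
Level of *Anxa2* against that of *S100a10* (left) and *S100a11* (right), both as CPM + 1 on log scales, in the 27 cluster sums of at least 50 cells, coloured by library. The points rise together (r of 0.89 and 0.91), and the lowest points on both axes are tail codes 10 (neuron-like) and 12 (erythroid-like).

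Near-identical copies could take or lose reads, since the study's counting ignored reads that map to several places. Within the last 400 bases, 3 members matched transcripts of other genes over at least 90 bases at 90% identity or more. *S100a11* matched 5, among them *Gm12854* at 98.8% over 260 bases, which was counted at 215 UMIs in the culture, 158 in the tail and 117 in D6 PM. *S100a4* matched *Gm42674* and *S100a10* matched *Gm4714*, and neither was listed in the culture and tail files. Levels of these 3 genes are therefore uncertain to that extent.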

How the data were processed

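Cells of a D10 culture, an E14.5 tail and D6 PM were measured by 10x Genomics 3′ single-cell RNA sequencing, 1 library each. The deposited tables hold UMI counts per gene and cell, made by the authors with Cell Ranger and Seurat 3.0; multi-mapping reads were ignored, cells above 7.5% mitochondrial UMIs and those in the lowest and highest 2% by UMI number were removed, and the cluster codes are those deposited. The build is not given in the sources used here. Members and lists were chosen with earlier results of these data known. Counts were summed per cluster of at least 10 cells and given as CPM, with exact Poisson, conditional binomial and Clopper-Pearson intervals at 95% (Python 3.11.15, SciPy 1.17.1). With 1 library per condition no test was made. Named genes were the members, fixed lists of other S100 genes, galectins and partners, and the 3 genes most like each member. Shares were computed after thinning to 3000 UMIs per cell, which left out 1157 culture, 100 tail and 1006 D6 PM cells. Scrublet called 116, 9 and 81 doublets, which were kept and left out in an alternative. The method was tested on simulated data. Alternatives changed doublets, shallow cells, denominators, per-cell averaging, fold, filter and depth. Intervals cover counting error only, and PCR or library differences lie outside them.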

Additional observations from a re-analysis of the deposited data

Results flagged for a closer look

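*S100a1* differed in direction between libraries for the same pair of clusters. Its level in the cartilage-like cluster was below that in code 1 in the D10 culture (1.20 against 4.46 CPM) and above it in the E14.5 tail (16.3 against 6.42 CPM), which puts the log2 ratios apart by -3.24 (culture minus tail). The difference was not tested, since each condition is 1 library. The culture value rests on 4 UMIs in the cartilage-like cluster and did not pass the detection filter. Its direction was the same in each library under the 4 alternatives tried for it.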

How the results depend on the processing

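No paired analysis was possible because each condition is 1 library. Among members at least 2-fold apart between culture and tail, code 1 had 2, and 1 with a 3-fold threshold or relative to the median gene. Code 2 had 3, and 1 with a 3-fold threshold or without called doublets. Code 4 had 3, and 2 to 4 under every setting tried. The counts under the other settings were within 1.5 times. Relative to the median gene, *S100a10* in code 1, *S100a6* in code 2 and *S100a13* in code 4 fell short of 2-fold, each at a log2 ratio of -0.84. For single ratios the alternatives changed doublets, shallow cells, denominator, per-cell averaging and, where split, macrophage-marker cells, and left out the median gene setting. Of 50 ratios at least 2-fold apart with UMIs in both groups, none changed direction under these alternatives. Under all of them 47 stayed at least 2-fold apart. Those that did not were *S100a6* in code 2 (up to 0.509), *S100a11* in code 9 (down to 1.93) and *Lgals1* for culture code 1 over D6 PM code 4 (down to 1.77, as a mean over cells). 9 moved by over 1.5 times, the largest being *S100a4* in code 9 (7.03 to 88.7 without macrophage-marker cells, an alternative added after the data were seen); the cause of the others was not tested. Averaging each cell's CPM moved 76 of 178 levels and 32 of 99 ratios beyond their intervals, leaving out mitochondrial, ribosomal protein and haemoglobin genes from the denominator 100 and 3, and leaving out doublets 14 and 6. Without thinning, 140 of 240 shares lay outside their intervals at 3000 UMIs. By rank correlation, 7 of 24 likeness values moved by 0.1 or more. Depth limits *S100a4* and *S100b*, which had under 10 UMIs in most clusters.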
